A study of Mus musculus with 6 samples.

Results

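The genes described here are 40 genes of G2 and mitosis, chosen by name: mitotic kinases, spindle checkpoint, anaphase, centromere and kinetochore, kinesin and spindle, cytokinesis, chromosome condensation and transcription factor genes. All 40 were found among the 24479 rows of the deposited table and belong to the 23837 rows that could be named. They were measured in PGCs (primordial germ cells, from which the gametes develop) of male mouse gonads at E13.5, sorted for the GFP of the OG2 transgene, a reporter under the Oct4 distal enhancer. The samples labelled Fancg-/- (og2.fvb.fancg -/-, 3 samples) carry a Pgk-hygromycin allele of Fancg, which encodes a component of the Fanconi anemia core complex, and the WT samples (og2.fvb.fancg +/+, 3 samples) share the OG2 reporter and the FVB background. Each sample held 10000 sorted cells from a pool of at least 5 embryos, so that a value is a mean over a pool, and 500 pg of its RNA was used for Affymetrix Mouse Gene 2.0 ST arrays. Fancg itself had log2 values of 6.38, 6.65 and 6.87 in samples labelled Fancg-/- and 6.07, 5.95 and 6.37 in WT samples, a difference of 0.51 (standard error 0.16), with labelled samples higher. The sources used here do not say which exons the probes of this row cover, so that the value does not check the labels, on which every direction given here rests.

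At the end of G2, CDK1 with its B-type cyclins drives entry into mitosis, Aurora and Polo-like kinases build the spindle, and the spindle checkpoint holds back the anaphase-promoting complex (APC/C) until every kinetochore is attached. Many of the genes are transcribed late in the cycle through the MuvB complex, which binds a promoter element called the CHR (cell cycle genes homology region) and works with B-MYB (Mybl2) and FOXM1, and through NF-Y, which binds CCAAT boxes. Male germ cells stop dividing and enter mitotic arrest around and after this stage. The comparison of the genotypes addresses whether transcripts of the mitotic machinery differed in the PGCs that mutant gonads still held.

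The letters of the CHR and of CCAAT boxes were present in most promoters of the set. The RefSeq promoter table (build GRCm38.p6, 250 bases before to 50 after the start) holds 37 promoters of 34 of the genes, and Aurkb, Foxm1, Incenp, Kif20a, Spc24 and Tpx2 have no entry in it. Bub3, Ect2 and Prc1 each have overlapping entries. A CHR form, TTTGAA or TTCGAA on either strand, occurred in 28 of the 37 promoters (75.7%), against 6316 of all 32851 promoters (19.2%). CCAAT on either strand occurred in 27 of the 37 (73.0%), against 37.4% of all promoters. A CHR form within 50 bases of the start occurred in 25 of the 37 (67.6%), against 5.31% of all promoters, a window chosen after the matches had been seen. These are matches of letters and not measured binding sites. Promoters of 7 genes are printed as examples: Mybl2, Mad2l1 and Aurka are the genes with an unadjusted p under 0.05, and Plk1, Cdk1, Top2a and Bub1, among the genes fixed by name, show how the CHR and CCAAT letters lie. Capitals mark the CHR forms and CCAAT on either strand, and each promoter is read 5′ to 3′ on the strand of its gene.
Mybl2: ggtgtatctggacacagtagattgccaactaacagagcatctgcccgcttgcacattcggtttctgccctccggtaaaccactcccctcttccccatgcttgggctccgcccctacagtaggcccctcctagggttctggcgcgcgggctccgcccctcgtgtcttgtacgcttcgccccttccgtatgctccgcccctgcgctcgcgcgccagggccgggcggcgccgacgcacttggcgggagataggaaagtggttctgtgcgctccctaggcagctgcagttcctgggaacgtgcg
Mad2l1: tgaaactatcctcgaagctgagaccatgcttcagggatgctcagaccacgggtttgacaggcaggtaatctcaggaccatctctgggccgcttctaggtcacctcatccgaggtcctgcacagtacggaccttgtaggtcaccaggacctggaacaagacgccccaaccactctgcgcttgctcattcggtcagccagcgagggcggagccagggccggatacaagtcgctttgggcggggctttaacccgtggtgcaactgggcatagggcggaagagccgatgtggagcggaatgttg
Aurka: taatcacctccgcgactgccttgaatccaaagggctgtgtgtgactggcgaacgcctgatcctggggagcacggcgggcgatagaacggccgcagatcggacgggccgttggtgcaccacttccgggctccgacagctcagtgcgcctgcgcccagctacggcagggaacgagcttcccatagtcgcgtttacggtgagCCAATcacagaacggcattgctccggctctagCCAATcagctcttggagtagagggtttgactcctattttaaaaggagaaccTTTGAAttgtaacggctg
Plk1: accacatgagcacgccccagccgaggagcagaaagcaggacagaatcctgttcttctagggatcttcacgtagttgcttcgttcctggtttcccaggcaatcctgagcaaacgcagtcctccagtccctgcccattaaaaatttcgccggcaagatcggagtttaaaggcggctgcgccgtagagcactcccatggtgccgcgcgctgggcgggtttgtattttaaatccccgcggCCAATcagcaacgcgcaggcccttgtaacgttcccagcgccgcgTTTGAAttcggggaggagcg
Cdk1: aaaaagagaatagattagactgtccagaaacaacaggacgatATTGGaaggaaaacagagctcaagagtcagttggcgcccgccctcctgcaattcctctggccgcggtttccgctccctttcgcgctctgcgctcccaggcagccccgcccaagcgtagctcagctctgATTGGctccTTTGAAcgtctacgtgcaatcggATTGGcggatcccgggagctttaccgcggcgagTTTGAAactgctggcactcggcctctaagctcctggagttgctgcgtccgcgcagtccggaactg
Top2a: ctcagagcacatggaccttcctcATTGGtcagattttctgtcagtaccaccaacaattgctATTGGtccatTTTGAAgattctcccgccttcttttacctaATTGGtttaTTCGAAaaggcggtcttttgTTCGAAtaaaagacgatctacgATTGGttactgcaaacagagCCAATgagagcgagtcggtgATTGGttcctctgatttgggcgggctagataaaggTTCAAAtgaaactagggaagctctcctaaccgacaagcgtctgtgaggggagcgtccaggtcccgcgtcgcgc
Bub1: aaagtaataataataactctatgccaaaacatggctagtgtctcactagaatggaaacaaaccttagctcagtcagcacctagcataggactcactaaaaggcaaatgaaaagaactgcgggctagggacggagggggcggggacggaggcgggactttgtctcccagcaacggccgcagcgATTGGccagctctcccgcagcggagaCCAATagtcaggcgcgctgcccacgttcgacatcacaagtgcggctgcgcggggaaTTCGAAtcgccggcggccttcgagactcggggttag

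The Mybl2 promoter (chr2:163054385-163054684, plus strand) and that of Mad2l1 (chr6:66534971-66535270, plus strand) held none of these letters in the window. The Aurka promoter (chr2:172370521-172370820, minus strand) held 1 CHR form, at position 33 from the start, and 2 CCAAT boxes. The Plk1 promoter (chr7:122159185-122159484, plus strand) held 1 CHR form at position 31 and 1 CCAAT box. That of Cdk1 (chr10:69352863-69353162, minus strand) held 2 CHR forms, the closer at -15, and 3 CCAAT boxes. The Top2a promoter (chr11:99024140-99024439, minus strand) held 4 CHR forms and 6 CCAAT boxes, and the Bub1 promoter (chr2:127831810-127832109, minus strand) held 1 CHR form at position 15 and 2 CCAAT boxes. The 25 genes with a CHR form had a median log2 difference (samples labelled Fancg-/- minus WT) of 0.05, ranging over -0.14 to 0.23, and the 9 with a promoter entry and no CHR form had 0.08, ranging over -0.11 to 0.25. The difference between these groups of genes was not tested.

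The transcripts of the mitotic machinery differed little between PGCs labelled Fancg-/- and WT PGCs. Of the 40 genes, 27 had a positive log2 difference (67.5%) and 13 a negative one, against 52.9% positive of all 23837 named rows. The median of the 40 was 0.06, against 0.01 for all named rows, and lay between 0.03 (without WT replicate 2) and 0.09 (without labelled replicate 1) when 1 sample was left out. The differences ran between -0.14 for Cenpf and 0.25, a fold of 1.19, for Mybl2, and 25 of the 40 were under 0.1 in size. None of the 40 was called at an adjusted p under 0.05 (limma, Benjamini-Hochberg over all named rows, smallest adjusted p = 0.32), and neither was any other named row (0.0%). At an unadjusted p under 0.05 from limma, 3 of the 40 were higher in samples labelled Fancg-/- (7.5%, against 6.23% of all named rows) and 0 were lower (against 6.17%). The groups did not overlap, with labelled samples higher, for 6 of the 40 (15.0%, against 9.45% of all named rows), and with labelled samples lower for 2 (5.0%, against 8.45%). In bulk samples, a different share of cells in G2 or mitosis and a different amount of RNA per cell, in either direction, cannot be told apart.

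The intervals bound how large a difference could have been missed. The 95% interval of the difference, taken for each gene by itself, lay within 1.5-fold either way (a log2 difference of 0.58) for 40 of the 40, against 82.2% of all named rows. This limit was chosen after the data had been seen, and the count was 18 of 40 in a fit with a somatic marker covariate, described below. The lowest bound was -0.36, for Cenpf, and the highest 0.55, for Cenpa. The SD between replicates, pooled over both groups, had a median of 0.09 over the 40, against 0.14 over all named rows, and ran between 0.02 for Spc25 and 0.20 for Cenpa. None of the 40 lay among the 25% of rows with the lowest mean signal, and no filter on signal was applied.

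**Figure D1:**
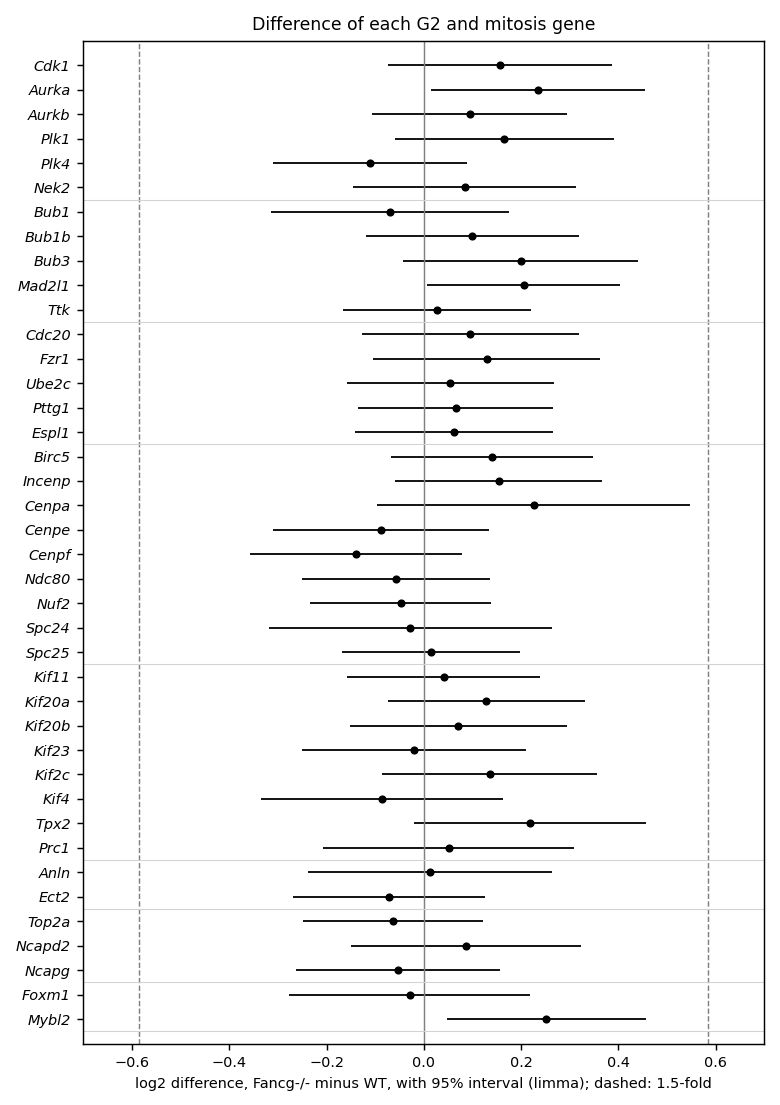
Log2 difference of each of the 40 genes, samples labelled Fancg-/- minus WT (x axis, log2 units), with its 95% interval from limma, grouped by role. The 40 intervals lie within 1.5-fold either way, with bounds of -0.36 and 0.55 at most, in the fit without a covariate.

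The 6 arrays had median log2 values of 4.73 to 4.79 and correlated at 0.989 to 0.994. All 10 germ cell markers lay above the lowest 25% of rows, but so did all Sertoli, Leydig and interstitial markers found. That rule therefore does not tell the cell types apart, and the germ cell label rests on the sort. The germ cell markers had a list mean of 9.61 to 9.70 in labelled samples and 9.50 to 9.58 in WT samples. Both ranges lay above those of the somatic lists given next. Of the 10 germ cell markers, 5 had a positive difference and 5 a negative one. Nanos3 (0.44) and Tfap2c (0.56) were the 2 with an unadjusted limma p under 0.05. Sall4, Kit and Prdm1 had 0.13, 0.21 and 0.22. The groups did not overlap, with labelled samples higher, for Nanos3, Tfap2c and Sall4, and with labelled samples lower for Dazl (-0.10). Ddx4, Pou5f1, Dppa3 and Dnd1 had -0.004, -0.02, -0.11 and -0.03. Markers of somatic cells were measured too. The list means of the groups did not overlap for fetal Leydig cell markers but overlapped for Sertoli, interstitial and endothelial markers. For the counts that follow, 6.17% of all named rows were lower and 6.23% higher at an unadjusted limma p under 0.05. All 5 fetal Leydig cell markers found of 6 listed had lower values with an unadjusted limma p under 0.05, and a list mean of 4.001 to 4.72 in labelled samples and 5.72 to 6.35 in WT samples. Of 10 Sertoli cell markers 9 had a negative difference and 1, Wt1, an unadjusted p under 0.05, with 6.52 to 7.11 in labelled samples and 6.98 to 7.57 in WT samples. Of 10 interstitial markers 4 were lower by that measure, with 5.14 to 5.38 in labelled samples and 5.19 to 5.69 in WT samples, and of 10 endothelial markers 6 were higher, with 5.23 to 5.66 in labelled samples and 4.93 to 5.34 in WT samples. Pecam1, 1 of these 6, had 9.70, 10.05 and 10.01 in labelled samples and 9.72, 9.45 and 9.45 in WT samples. These values lie in the range of the germ cell markers, and the cells they came from were not tested. Erythroid markers (5 found of 7 listed) averaged 3.44 to 4.35 in labelled samples and 3.78 to 4.11 in WT samples, and 7 macrophage markers 4.12 to 4.21 in labelled samples and 4.15 to 4.31 in WT samples, of which Csf1r, Ptprc and Adgre1 were among the lowest 25% of rows. At an unadjusted limma p under 0.05, 1 erythroid marker was lower (Alas2, -0.47), and of the macrophage markers 1 was lower (Cd68, -0.37) and 1 higher (Adgre1, 0.24). The part of these markers in the differences of the 40 genes was not tested beyond a fit with the mean of the Sertoli, Leydig, interstitial and endothelial markers as a covariate, in which 1 of the 40, Fzr1, had an unadjusted p under 0.05 (difference 0.45, limma adjusted p = 0.91) and 18 intervals lay within 1.5-fold. This covariate averages lists that moved in opposite directions, the endothelial markers higher and the others lower in labelled samples, so that it follows no single cell type. The covariate was itself lower in labelled samples than in WT samples. This fit therefore cannot separate the genotype from the markers, and its intervals and differences decide neither.

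**Figure D2:**
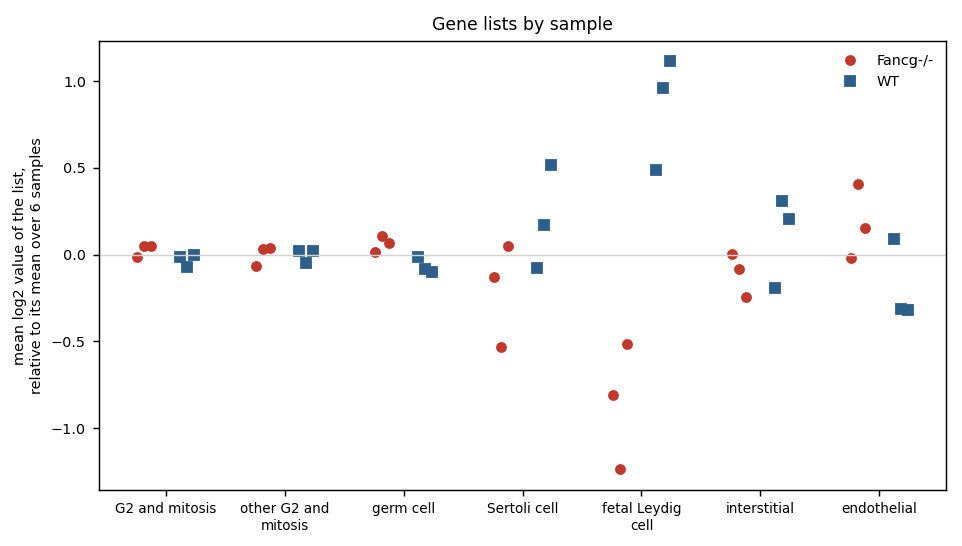
Mean log2 value of each gene list in each sample relative to its mean over the 6 samples (y axis), with samples labelled Fancg-/- (circles) left of WT (squares). The 40 genes lie between -0.07 and 0.05, and the fetal Leydig cell markers between -1.24 and 1.12.

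The largest difference of the set was that of a single transcription factor gene of the late cell cycle, Mybl2. Mybl2, which encodes the B-MYB partner of MuvB, had log2 values of 9.43, 9.63 and 9.54 in samples labelled Fancg-/- and 9.28, 9.28 and 9.28 in WT samples. The WT values lay within 0.01 of each other and each labelled sample lay above them. The log2 difference was 0.25 (standard error 0.09, 95% interval 0.05 to 0.46), with an unadjusted p of 0.022 and an adjusted p of 0.32 by limma. Foxm1, a forkhead factor of G2 and mitosis, had 8.63, 8.37 and 8.35 in labelled samples and 8.43, 8.43 and 8.58 in WT samples. Labelled replicate 1 was the highest of all samples and labelled replicates 2 and 3 the lowest, and the difference of -0.03 (95% interval -0.28 to 0.22) was smaller than the spread between replicates.

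The mitotic kinases had a median difference of 0.13, with 5 of 6 positive (against 52.9% of all named rows) and 3 of 6 with labelled samples higher and no overlap (against 9.45%). Aurka, the kinase of spindle poles, had 9.42, 9.55 and 9.66 in samples labelled Fancg-/- and 9.26, 9.37 and 9.29 in WT samples. Each labelled value exceeded each WT value, and the difference was 0.23 (95% interval 0.01 to 0.45, unadjusted p = 0.040 and adjusted p = 0.38 by limma). Plk1, the Polo-like kinase of mitotic entry and spindle assembly, had 9.74, 9.69 and 9.84 in labelled samples and 9.67, 9.45 and 9.64 in WT samples. Labelled replicate 2 lay just above WT replicate 1, and the difference was 0.17 (95% interval -0.06 to 0.39, limma adjusted p = 0.55), or 0.098 without WT replicate 2. Aurkb, the kinase of the chromosomal passenger complex, had 8.80, 8.82 and 8.91 in labelled samples and 8.79, 8.67 and 8.78 in WT samples. Its groups were separated by less than 0.01, and the difference was 0.09 (95% interval -0.11 to 0.30, limma adjusted p = 0.71). Cdk1, the kinase that triggers mitosis, had 9.86, 9.82 and 10.07 in labelled samples and 9.74, 9.83 and 9.70 in WT samples. WT replicate 2 exceeded labelled replicate 2, and the difference was 0.16 (95% interval -0.07 to 0.39, limma adjusted p = 0.58). It was 0.081 without labelled replicate 3. Nek2, a centrosome kinase, had 0.08, and Plk4, which starts centriole duplication, had -0.11 (limma adjusted p = 0.65). Labelled replicate 3 held the highest value of 5 of the 6 kinase genes.

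**Figure D3:**
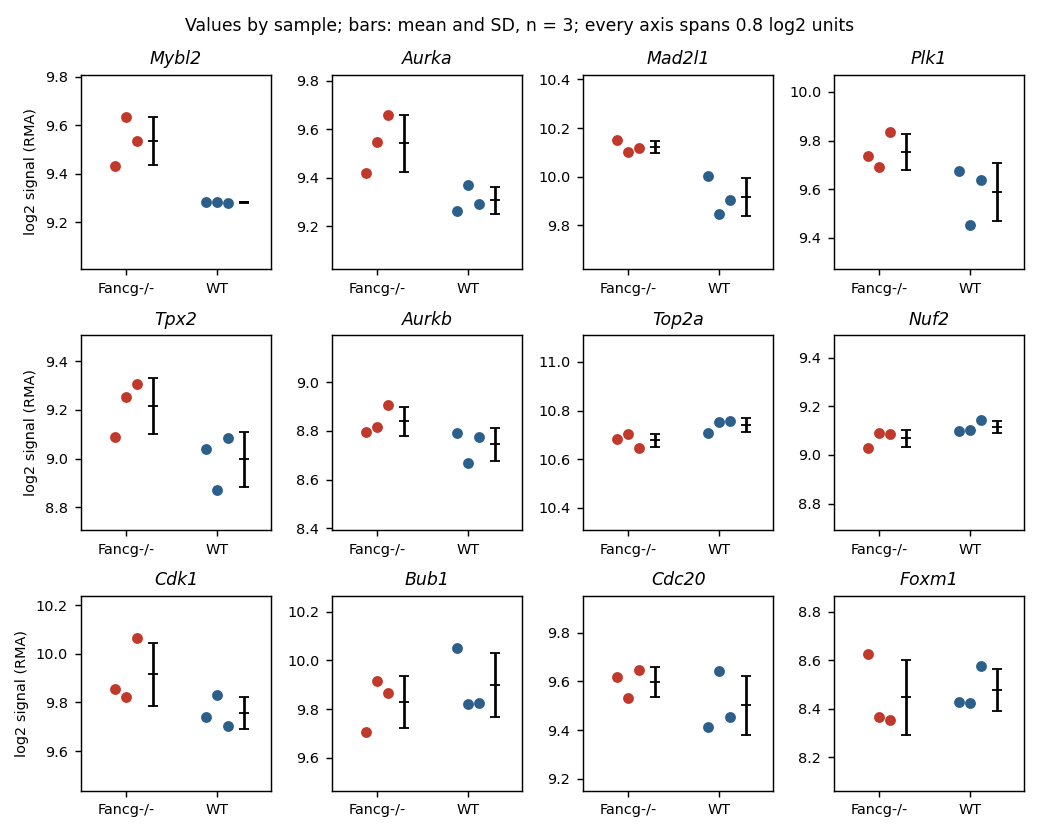
Log2 RMA signal (y axis) of 12 genes in each sample, samples labelled Fancg-/- left of WT, with the mean and SD (n = 3) beside the points. The groups do not overlap in the panels of Mybl2, Aurka, Mad2l1, Plk1, Tpx2, Aurkb, Top2a and Nuf2, and the largest difference of means, that of Mybl2, is 0.25.

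Among spindle checkpoint genes, 4 of 5 had a positive difference and the median was 0.10. Mad2l1, whose protein MAD2 inhibits the APC/C activator CDC20, had 10.15, 10.10 and 10.12 in samples labelled Fancg-/- and 10.002, 9.85 and 9.90 in WT samples. The labelled samples lay close together above all WT samples, and the difference was 0.20 (95% interval 0.01 to 0.40, unadjusted p = 0.044 and adjusted p = 0.39 by limma). Bub1, the kinase that recruits checkpoint proteins to kinetochores, had 9.71, 9.92 and 9.86 in labelled samples and 10.05, 9.82 and 9.82 in WT samples. Labelled replicate 1 was the lowest and WT replicate 1 the highest of all samples, and the difference was -0.07 (95% interval -0.31 to 0.18, limma adjusted p = 0.85). Bub3, the binding partner of BUB1 and BUBR1, had 0.20 (limma adjusted p = 0.49), Bub1b, which encodes BUBR1, had 0.10, and the checkpoint kinase gene Ttk had 0.03.

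The 5 genes of anaphase and mitotic exit had differences between 0.05 and 0.13, and none had groups that did not overlap. Cdc20, the APC/C activator of early anaphase, had 9.62, 9.53 and 9.65 in samples labelled Fancg-/- and 9.41, 9.64 and 9.45 in WT samples. WT replicate 2 lay among the labelled samples, and the difference was 0.10 (95% interval -0.13 to 0.32, limma adjusted p = 0.745). Fzr1, which encodes CDH1, the APC/C activator of mitotic exit and G1, had 8.63, 8.53 and 8.70 in labelled samples and 8.35, 8.52 and 8.60 in WT samples. WT replicate 3 exceeded labelled replicate 2, and the difference was 0.13 (95% interval -0.10 to 0.36, limma adjusted p = 0.65). The ubiquitin-conjugating enzyme gene Ube2c had 0.05, the securin gene Pttg1 had 0.07 and the separase gene Espl1 had 0.06.

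In the centromere and kinetochore group 4 of 9 genes had a positive difference and 5 a negative one, with a median of -0.03. Incenp, the scaffold of the chromosomal passenger complex, had the smallest p of the group, with 9.47, 9.41 and 9.32 in samples labelled Fancg-/- and 9.26, 9.16 and 9.33 in WT samples. WT replicate 3 exceeded labelled replicate 3, and the difference was 0.15 (95% interval -0.06 to 0.37, limma adjusted p = 0.55). Nuf2, a subunit of the NDC80 complex that binds microtubules, had 9.03, 9.09 and 9.09 in labelled samples and 9.10, 9.10 and 9.15 in WT samples. Each labelled value was below each WT value, and the difference was -0.05 (95% interval -0.23 to 0.14, limma adjusted p = 0.86). The other subunits of that complex had -0.06 for Ndc80, -0.03 for Spc24 and 0.01 for Spc25. Cenpa, the centromeric histone H3 variant, had the widest spread of the 40 and was picked out after its values had been seen, with 9.87, 10.01 and 10.34 in labelled samples and 9.98, 9.84 and 9.72 in WT samples. Labelled replicate 3 was the highest of all samples and labelled replicate 1 lay below WT replicate 1, and the difference was 0.23 (95% interval -0.10 to 0.55, limma adjusted p = 0.56). It was 0.091 without labelled replicate 3 and 0.33 without labelled replicate 1. The survivin gene Birc5 had 0.14, the kinetochore motor gene Cenpe had -0.09 and Cenpf, which encodes a large kinetochore protein, had -0.14 (limma adjusted p = 0.60).

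Of the 8 kinesin and spindle genes, 6 had a positive difference and the median was 0.06. Tpx2, which activates Aurora A at the spindle, had 9.09, 9.25 and 9.31 in samples labelled Fancg-/- and 9.04, 8.87 and 9.08 in WT samples. Labelled replicate 1 lay above WT replicate 3 by less than 0.01, and the difference was 0.22 (95% interval -0.02 to 0.46, unadjusted p = 0.068 and adjusted p = 0.45 by limma). The motor genes Kif2c, Kif20a and Kif20b had 0.14, 0.13 and 0.07, the bipolar spindle motor gene Kif11 had 0.04, and Kif23 and Kif4, motors of the central spindle, had -0.02 and -0.09. Prc1, which bundles the microtubules of the central spindle, had 0.05.

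The 2 cytokinesis and 3 condensation genes had differences between -0.07 and 0.09. Ect2, the exchange factor that activates RhoA at the cleavage plane, had 9.24, 9.23 and 9.28 in samples labelled Fancg-/- and 9.24, 9.38 and 9.35 in WT samples. Labelled replicate 3 exceeded WT replicate 1, and the difference was -0.07 (95% interval -0.27 to 0.12, limma adjusted p = 0.79). The cleavage furrow gene Anln, which encodes anillin, had 0.01. Top2a, the topoisomerase that unlinks sister chromatids, had 10.68, 10.70 and 10.65 in labelled samples and 10.71, 10.75 and 10.76 in WT samples. Its groups did not overlap, with labelled samples lower, and the difference was -0.06 (95% interval -0.25 to 0.12, limma adjusted p = 0.81). Ncapd2, a condensin subunit, had 8.496, 8.63 and 8.75 in labelled samples and 8.62, 8.44 and 8.55 in WT samples. Labelled replicate 1 lay below WT replicates 1 and 3, and the difference was 0.09 (95% interval -0.15 to 0.32, limma adjusted p = 0.79). The condensin gene Ncapg had -0.05.

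**Figure D4:**
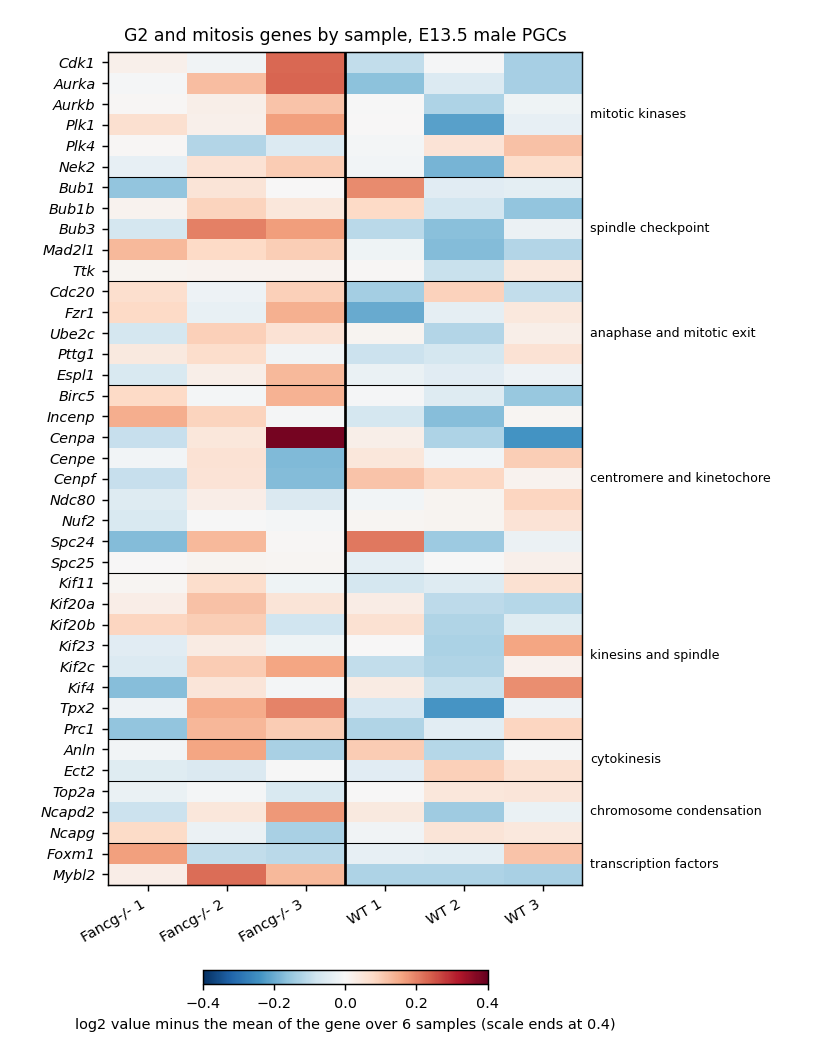
Log2 value of each of the 40 genes minus its mean over the 6 samples (colour, log2 units), with the 3 samples labelled Fancg-/- left of the 3 WT samples. Labelled replicate 3 held the highest value of 13 genes and WT replicate 2 the lowest of 13, and colours vary within each group.

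As averages over the 40 genes, with the mean over all samples set to 0, the replicates labelled Fancg-/- stood at -0.01, 0.05 and 0.05 and the WT replicates at -0.02, -0.07 and -0.003 (log2 units). Labelled replicate 1 lay below WT replicate 3, so that the averages of the groups overlapped. Labelled replicates 3 and 2 held the highest value of 13 and 10 genes, and WT replicate 3 of 9. The lowest value of 13 genes was in WT replicate 2. None of the 40 had an unadjusted p under 0.05 (limma) without labelled replicate 2, without WT replicate 2 or without WT replicate 3, and 4 had one without labelled replicate 1. Shares of all named rows in these fits are not given here, so that these counts show no excess. Over 14 alternative settings, each with its own test, Mybl2 had an unadjusted p under 0.05 in 10, Aurka in 7 and Mad2l1 in 6. These genes were followed because they had a low p in the fit of all samples. The settings reuse the same arrays, so that the tally is not independent evidence of a difference.

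A further 95 genes of the same processes were listed, and 94 of them were measured (Kpna2 was not found among the named rows). Their median difference was 0.01, 52 were positive and 42 negative, and 0 were called over all named rows (limma, smallest adjusted p = 0.28). At an unadjusted p under 0.05, 1 of the 94 was higher in samples labelled Fancg-/- (1.06%, against 6.23% of all named rows) and 5 were lower (5.32%, against 6.17%). Without overlap of the groups, 7 of the 94 were higher (7.45%, against 9.45% of all named rows) and 8 lower (8.51%, against 8.45%). The 16 genes of mitotic entry and MuvB had a median of 0.06. Ccnf, which encodes cyclin F of an SCF ubiquitin ligase, had 8.73, 8.89 and 8.99 in labelled samples and 8.60, 8.31 and 8.60 in WT samples. The groups did not overlap, and the difference was 0.37 (standard error 0.12, limma adjusted p = 0.29). Pkmyt1, the kinase that inhibits CDK1, had 7.89, 7.496 and 7.49 in labelled samples and 7.68, 8.28 and 8.13 in WT samples. Labelled replicate 1 exceeded WT replicate 1, and the difference was -0.40 (standard error 0.18, limma adjusted p = 0.41). The mitotic cyclin genes Ccna2, Ccnb1 and Ccnb2 had 0.07, 0.06 and 0.06, and the MuvB genes Lin9, Lin37, Lin52 and Lin54 had 0.02, 0.08, -0.11 and -0.08, named for their roles after their values had been seen.

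The 5 lower genes came from the other lists. Of 34 further kinetochore genes, whose median was 0.01, Cenpc1, which anchors the inner kinetochore to the centromere, had 8.17, 8.33 and 8.29 in labelled samples and 8.52, 8.52 and 8.60 in WT samples. Its difference was -0.28 (standard error 0.09, limma adjusted p = 0.28). Cenpk, another inner kinetochore gene, had 6.89, 7.09 and 7.02 in labelled samples and 7.31, 7.16 and 7.28 in WT samples, a difference of -0.25 (limma adjusted p = 0.35), and in both genes the groups did not overlap. Of 6 further condensin genes (median -0.03), Smc4, an ATPase shared by both condensins, had 10.08, 10.11 and 10.02 in labelled samples and 10.26, 10.30 and 10.38 in WT samples. Its difference was -0.24 (standard error 0.08, limma adjusted p = 0.32) with groups that did not overlap, and the condensin II gene Ncapg2 had 7.13, 7.49 and 7.44 in labelled samples and 7.57, 7.47 and 7.53 in WT samples, with groups that overlapped. Of 24 measured spindle and midbody genes of 25 listed (median 0.02), Sass6, which builds the centriole cartwheel, had 7.49, 7.42 and 7.59 in labelled samples and 7.70, 7.73 and 7.74 in WT samples. Its difference was -0.23 (standard error 0.09, limma adjusted p = 0.35) with groups that did not overlap. Cit, the citron kinase of cytokinesis, had 6.82, 6.95 and 6.81 in labelled samples and 6.72, 6.71 and 6.64 in WT samples. The groups of Cit did not overlap either, with labelled samples higher, and its difference was 0.17 (limma adjusted p = 0.48). Of 14 APC/C subunit genes (median -0.03), Anapc1, the largest subunit, had 8.84, 8.88 and 8.82 in labelled samples and 9.03, 9.02 and 9.05 in WT samples. Its difference was -0.19 (standard error 0.08, limma adjusted p = 0.39) with groups that did not overlap. Anapc15 had 10.66, 10.44 and 10.46 in labelled samples and 10.38, 10.40 and 10.17 in WT samples. The groups of Anapc15 did not overlap either, with labelled samples higher, and its difference was 0.21 (limma adjusted p = 0.49). The proliferation marker gene Mki67, named after its values had been seen, had -0.12 (limma adjusted p = 0.63).

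**Figure D5:**
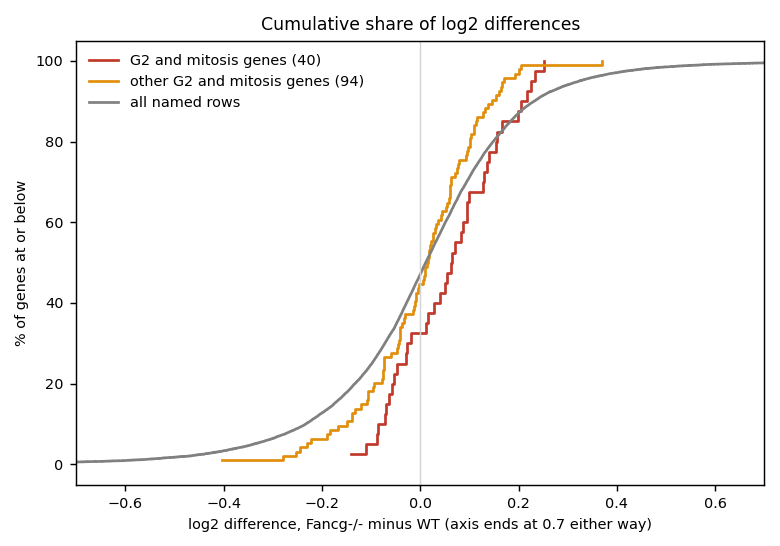
Share of genes (y axis, %) at or below each log2 difference (x axis, samples labelled Fancg-/- minus WT) for the 40 genes, the 94 further genes of G2 and mitosis and all named rows. The medians are 0.06, 0.01 and 0.01, and the 40 genes span -0.14 to 0.25.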

How the data were processed

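Gene expression was measured in E13.5 male PGCs, in 3 samples labelled Fancg-/- and 3 WT samples, on 1-colour Affymetrix Mouse Gene 2.0 ST arrays. The authors deposited log2 values summarised per gene by RMA, and the submitters' processing notes also name Partek. No version or genome build is stated for these steps. RMA equalizes the distributions of the arrays, so that a shift shared by most genes would not be seen. Arrays have no read depth, and their number limits the precision. With 3 samples a group, the smallest p of an exact permutation test is 0.1, and none was run.

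Of 24479 rows, 23712 were named through RefSeq (GRCm38.p6) and 23837 once the platform annotation was added, and 642 unnamed rows were left out. Differences (Fancg-/- minus WT) were fitted in R 4.3.3 with lmFit and eBayes of limma 3.58.1. The p-values of all named rows were adjusted together (Benjamini-Hochberg), and the procedure was tested on simulated data. The simulated differences were larger than any of the 40 genes had, so that the test does not show recovery of differences of that size. The 40 genes, the lists and the tests were chosen with earlier results of these data known. Values by sample are given for genes of the 40 with an unadjusted p under 0.05, with groups that did not overlap or with the smallest p of their role, for 8 genes fixed by name, and for up to 2 genes of each further list. The alternatives were the methods' t-test, a robust prior with an intensity trend, array weights, a further quantile normalization, arrays centred on their medians, leaving out the lowest 25% of rows, the replicate number as a block, a somatic marker covariate, and leaving out each sample.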

Additional observations from a re-analysis of the deposited data

How the results depend on the processing

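In the 14 alternatives, 0 of the 40 genes were called at an adjusted p under 0.05, and the smallest adjusted p was 0.16, by limma with an intensity trend and a robust prior. By limma, the number higher at an unadjusted p under 0.05 was 6 with that prior, 1 with the replicate block and 1 with the somatic covariate. Shares of all named rows in the alternatives are not given here, so that no count in this paragraph shows an excess. The methods' t-test gave 1 lower, Top2a. Of the further genes, that test gave 3 higher, the robust prior 2 higher and 8 lower, the replicate block 1 lower, and the somatic covariate 0 higher and 0 lower. With arrays centred on their medians, 8 of the 40 were higher and 1 was lower with groups that did not overlap, against 6 and 2 without this step. Intervals within 1.5-fold, counted after the data had been seen, numbered 18 with the somatic covariate. Over the fits without 1 sample, 0 to 4 of the 40 were higher at an unadjusted p under 0.05 by limma. In these fits 8 to 14 were higher and 2 to 5 lower without overlap, which fewer samples make likelier for any row. The shares of all named rows given for all 6 samples, 9.45% and 8.45%, therefore do not apply to them. Of the further genes, 0 to 4 were higher and 1 to 4 lower at an unadjusted p under 0.05 by limma. The median difference of the 40 ran between 0.033 and 0.095. Without WT replicate 1, 3 of all named rows were called, and none of the 40.

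Differences turned sign in at least 1 alternative for 13 of the 40 genes. The somatic covariate averages lists that moved in opposite directions and itself differed between the groups. With it, Plk4 had 0.036, Bub1b -0.15, Kif20a -0.048, Kif20b -0.14, Kif23 0.055, Anln -0.27, Ect2 0.072, Foxm1 0.087 and, of the further genes, Pkmyt1 0.069. Spc24 had 0.025 with array weights and Kif23 0.0015 with arrays centred on their medians. Without 1 sample the differences ranged over -0.11 to 0.0074 for Bub1, -0.0100 to 0.055 for Ttk, -0.11 to 0.071 for Spc24, -0.0016 to 0.029 for Spc25, -0.089 to 0.053 for Kif23, -0.0027 to 0.14 for Prc1, -0.064 to 0.080 for Anln and -0.12 to 0.021 for Foxm1. The cause was not tested. Same-numbered samples did not deviate together (correlations -0.14, -0.11 and 0.03), and those of other pairs ran between -0.05 and 0.14. No pairing by replicate number was seen, but the labels name no pairs, and this check with 3 arrays a group does not settle it. Precision is limited by 3 arrays a group.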
